A study of Homo sapiens with 6 samples.

Results

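The cadherins and protocadherins are surface proteins built from repeated calcium-binding extracellular cadherin domains. Members were the protein-coding genes whose symbol is CDH with a number, begins with PCDH, or is FAT1 to FAT4, DCHS1, DCHS2 or CELSR1 to CELSR3, and 98 of the 28395 genes in the count table met that rule. The libraries came from U251MG, an established human glioblastoma cell line, as 3 libraries of NUAK2 wild-type cells (WT) and 3 of a CRISPR-Cas9 derivative targeted at NUAK2 (NUAK2-CR). NUAK2 encodes an AMPK-related serine/threonine kinase. By the study's methods the CRISPR cells were made with a pair of fluorescent lentiviral Cas9 guide vectors, and doubly positive cells were sorted singly and grown into clones. No label says which clone a NUAK2-CR library came from, or that libraries came from separate cultures, so p-values measure the spread between these libraries, and the effect of NUAK2 targeting and that of a clone's own history cannot be told apart.

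Classical cadherins hold neighboring cells together: their extracellular domains pair across the junction, mostly like with like, and their cytoplasmic tails bind p120-catenin and beta-catenin, which connects through alpha-catenin to actin. Type I members include E-cadherin (CDH1), N-cadherin (CDH2), P-cadherin (CDH3) and R-cadherin (CDH4), and glial and neural cells typically carry CDH2 rather than CDH1. Protocadherins lack the catenin-binding tail. The clustered ones lie in tandem in the PCDHA, PCDHB and PCDHG arrays on the long arm of chromosome 5, where each variable exon has its own promoter and where neurons express combinations that serve as a surface identity code. The delta protocadherins are scattered in the genome and act in neural circuit formation, and the giant FAT, Dachsous and CELSR cadherins act in planar cell polarity and growth control.

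NUAK2 had 1926, 1457 and 1580 normalized counts in WT against 799, 961 and 849 in NUAK2-CR (log2 fold change -0.93, SE 0.11, adjusted p = 1.8e-05), so its transcript was lower in NUAK2-CR but present in every library. Chromosome 1, where NUAK2 lies, had a median log2 fold change of -0.43 over its 1541 tested genes. The part of that shift in the NUAK2 difference was not tested. Normalized counts are read counts after TMM scaling to a common library size, and library totals ran from 29648445 to 55574081. Over all genes tested 26.3% were higher and 28.2% lower in NUAK2-CR at an adjusted p under 0.05, the shares to set beside each marker list. Of 12 glioma and astrocytic marker genes 10 could be tested and 7 were lower in NUAK2-CR, GFAP among them, while SOX9, NFIA and SLC1A3 did not pass. The list's summed level was 9097 to 9853 CPM (counts scaled to library size) over the WT libraries and 4025 to 4147 over NUAK2-CR. GFAP, VIM and CD44 were its most abundant genes, and OLIG2 was at 0 in every library. All 8 fibroblast and mural markers could be tested, and 5 were higher and 3 lower, with sums of 1657 to 1718 CPM in WT and 2119 to 2233 in NUAK2-CR. Of 8 neuronal markers 2 were higher (SNAP25 and STMN2) and 3 lower (NEFL, TUBB3 and GAP43). They summed to 1073 to 1170 CPM in WT and 453 to 462 in NUAK2-CR. That sum is weighted to its abundant genes, and NEFL alone went from a mean of 22749 normalized counts in WT to 2026 in NUAK2-CR. The median log2 fold change of the neuronal list was -0.19. Epithelial markers summed to 159 to 183 CPM in WT and 181 to 197 in NUAK2-CR (6 of 11 tested, 2 higher and 3 lower, GRHL2 at 0 in every library). Endothelial markers summed to only 10.04 to 12.6 CPM in WT and 6.16 to 6.75 in NUAK2-CR (6 of 8 tested, 2 higher and 2 lower). The part of these cell state markers in the cadherin values was not tested.

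Cadherin and protocadherin transcripts were more often higher than lower in NUAK2-CR cells. Of the 98 members 58 had enough reads for edgeR's quasi-likelihood test, and 33 of these were higher and 9 lower at an adjusted p under 0.05, that is 56.9% and 15.5%, against 26.3% and 28.2% of all 14873 genes tested. Differentially expressed genes (DEGs), which also had an absolute log2 fold change over 2, numbered 8 higher (13.8%) and 6 lower (10.3%), against 1.89% and 2.83% of all genes tested. The DEGs with higher expression were CDH6, CDH7, CDH20, DCHS2, PCDH1, PCDHB6, PCDHB11 and PCDHGB1, and those with lower expression were FAT2, PCDH10, PCDH15, PCDH17, PCDH19 and PCDHGC5. The read filter can keep a gene through the group where it is high. With at least 10 counts required in every library, 44 members were tested and 27 were higher. CDH7, CDH20, PCDHB4, PCDHB6, PCDHB8 and PCDHGC4 dropped out of the higher members and PCDH17 out of the lower. The share of all genes under that filter is not given here. The 2 groups' values were separate in 46 of the 58 members (79.3%), against 61.4% of all genes tested. Tested members had a median log2 fold change of 0.66, and all genes tested had -0.01. Of the 33 higher members 11 lie in the PCDHB and 6 in the PCDHG cluster, where genes are neighbors of similar sequence and are not independent of each other. Outside the clusters 16 of 33 tested members were higher and 7 lower (48.5% and 21.2%), with a median of 0.44. The 40 members that could not be tested had at most 23 counts in any library, and 12 of them had no count at all. In bulk RNA a change in the number of cells that express a gene and a change in the level per cell cannot be told apart.

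**Figure D1:**
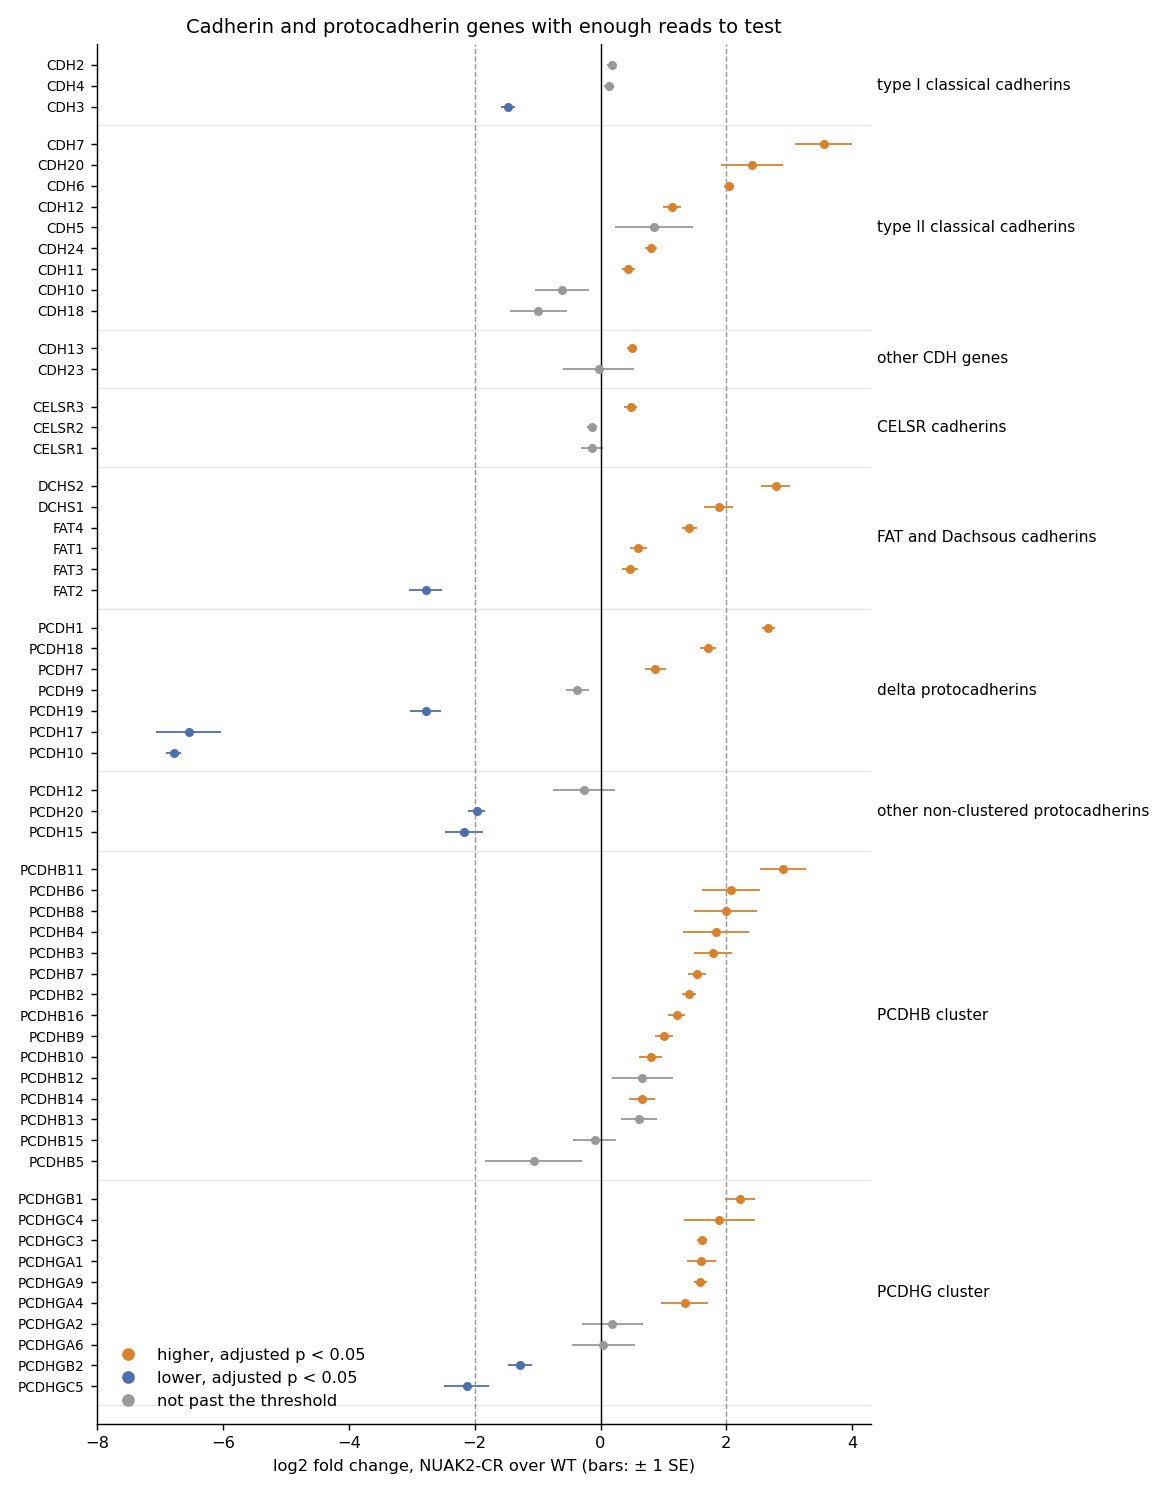
Log2 fold change (NUAK2-CR over WT, points, with bars of 1 SE) of the 58 tested cadherin and protocadherin genes, grouped by family and colored by call, with dashed lines at -2 and 2. PCDH10 and PCDH17 lie farthest to the left at -6.79 and -6.54, CDH7 farthest to the right at 3.55, and most of the PCDHB and PCDHG genes lie to the right of 0.

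Among the type I classical cadherins, the N-cadherin transcript differed little and P-cadherin fell. CDH2 had 9351, 10978 and 10850.3 normalized counts in WT against 12092, 11617 and 11469 in NUAK2-CR, the values did not overlap, and the difference did not pass the test (log2 fold change 0.17, SE 0.07, adjusted p = 0.0667). It passed with DESeq2 (0.18, adjusted p = 0.0455) and without WT replicate 2 (0.21, adjusted p = 0.0464), as a difference of the same small size. CDH3 (chr16:68645310-68733771 in GRCh38) had 939, 1171 and 1129.8 in WT against 394, 349.7 and 423 in NUAK2-CR, with all 3 NUAK2-CR libraries under every WT library (log2 fold change -1.47, SE 0.11, adjusted p = 3.67e-07). R-cadherin, CDH4, had 3689, 4232 and 3598 in WT against 4437, 4207 and 3954 in NUAK2-CR, and its groups overlapped (log2 fold change 0.13, SE 0.08, adjusted p = 0.189), although it passed without WT replicate 2 (0.20, adjusted p = 0.0437). E-cadherin was near the floor of detection, since CDH1 had 0, 6 and 4 counts in WT against 0, 4 and 0 in NUAK2-CR, and a library with 0 counts allows up to 3. CDH15, the muscle cadherin, had 14, 2 and 2 counts in WT against 4, 4 and 7 in NUAK2-CR and was not tested.

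Most of the tested type II cadherins were higher in NUAK2-CR, among them CDH6 and CDH7. Of 13 genes 9 were tested, and 6 were higher in NUAK2-CR (66.7%, against 26.3% of all genes tested) and 3 did not pass. The median log2 fold change was 0.85, the value of CDH5, which did not pass. CDH7 and CDH20 passed the read filter through NUAK2-CR, where they were high. Neither was tested with at least 10 counts required in every library. CDH6, or K-cadherin, which is known from kidney and the neural crest, had 1429, 1705 and 1475 normalized counts in WT against 6605, 6090.3 and 6300.4 in NUAK2-CR (log2 fold change 2.04, SE 0.08, adjusted p = 1.39e-09). Every NUAK2-CR library was far above every WT library, a 4.12-fold difference, although without WT replicate 1 the log2 value was 1.999 and CDH6 was no longer a DEG. CDH7, a cadherin of migrating neural crest cells, was scarce in WT. It had 10.6, 1.93 and 15.05 normalized counts in WT against 126, 82.0 and 119 in NUAK2-CR (log2 fold change 3.55, SE 0.45, adjusted p = 2.86e-05). CDH20, which like CDH7 lies on the long arm of chromosome 18, had only 4, 8 and 6 counts in WT against 21, 28 and 24 in NUAK2-CR (log2 fold change 2.41, SE 0.49, adjusted p = 0.00115).

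The other tested type II genes had smaller log2 fold changes than these. CDH11, or OB-cadherin, a mesenchymal cadherin, was among the most abundant members at 8963, 12125 and 11868 in WT against 15379.7, 14404 and 14996 in NUAK2-CR (log2 fold change 0.44, SE 0.10, adjusted p = 0.0026), and its groups did not overlap. CDH12 had 164, 199.7 and 182 in WT against 377, 370.2 and 451 in NUAK2-CR (log2 fold change 1.14, SE 0.14, adjusted p = 2.79e-05), again without overlap. CDH24 went the same way with 1441, 1149 and 1332 in WT against 2561, 2212 and 2075 in NUAK2-CR (log2 fold change 0.80, SE 0.10, adjusted p = 2.71e-05). VE-cadherin, CDH5, the defining cadherin of endothelium, had 7, 14 and 4 counts in WT against 6, 10 and 18 in NUAK2-CR, and its difference did not pass (log2 fold change 0.85, SE 0.62, adjusted p = 0.261). CDH10 and CDH18 had log2 fold changes of -0.61 (adjusted p = 0.248) and -0.99 (adjusted p = 0.0831), with at most 38 counts in a library. CDH8 had 18, 0 and 9 counts in WT against 0, 2 and 0 in NUAK2-CR, CDH9 had 0, 0 and 0 in WT against 2, 2 and 2 in NUAK2-CR, and CDH19 and CDH22 had none, so these 4 were not tested.

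Of the 5 other CDH genes, CDH13, or T-cadherin, which is tethered to the membrane by a GPI anchor and lacks a cytoplasmic tail, was the abundant one. It had 2646, 3147 and 2994 normalized counts in WT against 3911, 4249 and 4243 in NUAK2-CR (log2 fold change 0.50, SE 0.08, adjusted p = 0.000165), and the lowest NUAK2-CR library was above the highest WT library. CDH23, a tip-link protein of sensory hair cells, had at most 20 counts in a library and a log2 fold change of -0.03 (adjusted p = 0.968). CDH26 had 11, 7 and 8 counts in WT against 0, 2 and 2 in NUAK2-CR, and CDH16 and CDH17, of kidney and intestine, had at most 8. These 3 were not tested.

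**Figure D2:**
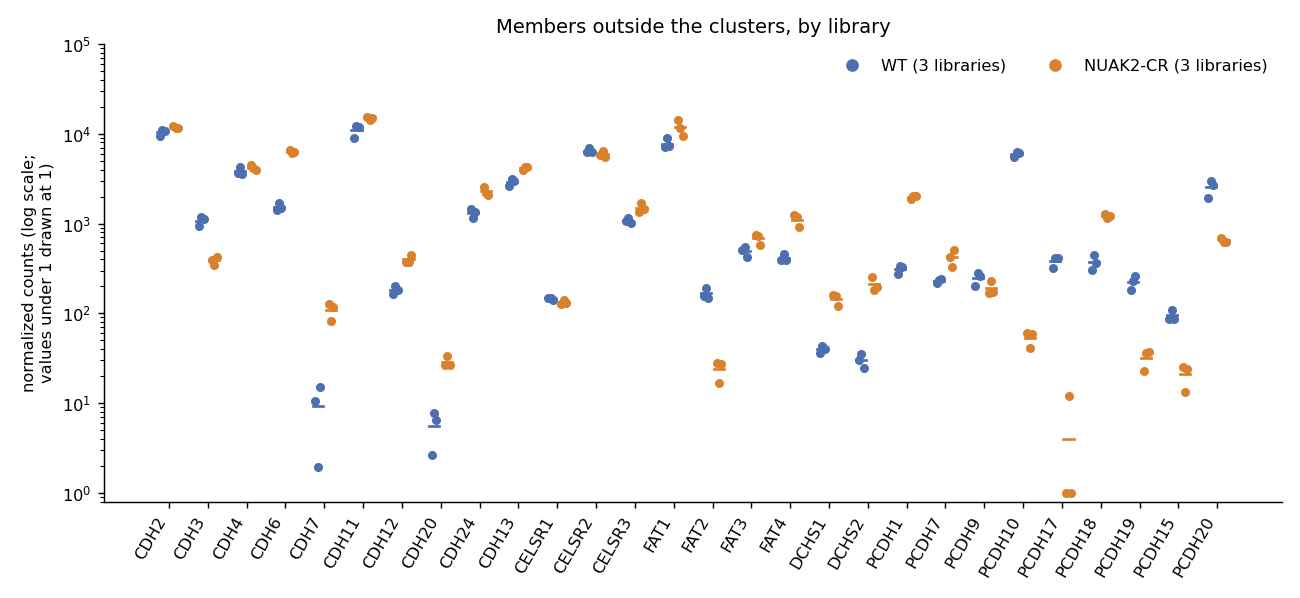
Normalized counts per library (log axis, values under 1 drawn at 1; points are libraries and short lines group means) of 28 members outside the clusters, with WT in blue and NUAK2-CR in orange. PCDH10 and PCDH17 drop by 110.3-fold and 93.3-fold in the fit, CDH6, PCDH1 and DCHS2 rise, and CDH2, CDH4 and CELSR2 differ little.

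Within the FAT and Dachsous group 5 of 6 genes were higher in NUAK2-CR and FAT2 was lower, and in each the groups did not overlap. Of all genes tested 26.3% were higher, 28.2% lower and 61.4% without overlap. FAT1, a giant cadherin described both as a tumor suppressor and as a promoter of migration in glioma, had 7131, 8953 and 7232 normalized counts in WT against 14283, 11575 and 9485 in NUAK2-CR (log2 fold change 0.60, SE 0.13, adjusted p = 0.00191). FAT4 and Dachsous are a receptor and ligand pair of the Hippo and planar polarity pathways. FAT4 had 393, 464 and 389 in WT against 1233, 1171 and 910.1 in NUAK2-CR (log2 fold change 1.41, SE 0.12, adjusted p = 1.24e-06). The Dachsous genes started low: DCHS1 had 35.9, 43.4 and 39.8 in WT against 160.0, 157 and 119.7 in NUAK2-CR (log2 fold change 1.87, SE 0.23, adjusted p = 2.27e-05), and DCHS2 had 30.6, 35.7 and 24.7 in WT against 254, 182 and 194 in NUAK2-CR (log2 fold change 2.78, SE 0.24, adjusted p = 8.93e-07). FAT3, a neuronal member, had 505, 546 and 429 in WT against 748, 726 and 575 in NUAK2-CR (log2 fold change 0.47, SE 0.13, adjusted p = 0.00769). Of these 5 the Dachsous genes had the larger folds and FAT1 and FAT3 the smaller. FAT2 was the exception, with 156, 194 and 149 in WT against 27.9, 16.9 and 27.4 in NUAK2-CR (log2 fold change -2.78, SE 0.26, adjusted p = 1.98e-06), a 6.87-fold lower level.

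The 3 CELSR genes, which encode multipass membrane cadherins of planar cell polarity, had log2 fold changes of at most 0.48 in size. CELSR3 had 1078, 1146 and 1020.1 normalized counts in WT against 1339.6, 1711 and 1468 in NUAK2-CR (log2 fold change 0.48, SE 0.10, adjusted p = 0.00116), and the groups did not overlap. CELSR2, the most abundant of them, had 6207, 7009 and 6275 in WT against 5739, 6505 and 5576 in NUAK2-CR, which overlapped (log2 fold change -0.13, SE 0.08, adjusted p = 0.189). CELSR1 had 147, 148 and 142 in WT against 128, 139.9 and 129.5 in NUAK2-CR, and the small difference did not pass (log2 fold change -0.14, SE 0.17, adjusted p = 0.523).

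The delta protocadherins split in both directions and held the strongest decreases of the family. Of 10 genes 7 were tested, 3 higher, 3 lower and 1 not passed. That is 42.9% in each direction, against 26.3% higher and 28.2% lower of all genes tested. PCDH10 (OL-protocadherin, chr4:133149294-133208606), a homophilic adhesion protein of neural tracts that is often silenced by promoter methylation in cancers, had 5458, 6251 and 6135 normalized counts in WT against 60.9, 41.0 and 59.3 in NUAK2-CR (log2 fold change -6.79, SE 0.13, adjusted p = 4.04e-12). The NUAK2-CR mean was 0.904% of the WT mean, a 110.3-fold difference, and reads remained in all 3 libraries. PCDH17 (chr13:57630108-57729311), a protocadherin of corticobasal ganglia circuits, had 321, 413 and 412 in WT against 0, 12.1 and 0 in NUAK2-CR (log2 fold change -6.54, SE 0.51, adjusted p = 4.34e-07). Its NUAK2-CR reads were 10 counts in replicate 2 and 0 in the other libraries. In the fit over all libraries it was 93.3-fold lower. For the 2 NUAK2-CR libraries at 0 alone, with a floor of 3 counts, it was at least 107-fold lower, which is no bound for the group. That floor takes counts as independent, and the bound would be lower if both reads of a pair were counted. PCDH19, an X-linked gene that is mutated in an inherited epilepsy, had 183, 227 and 259 in WT against 22.9, 36.2 and 37.3 in NUAK2-CR (log2 fold change -2.78, SE 0.24, adjusted p = 1.21e-06), with no overlap.

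Against these, PCDH1, PCDH7 and PCDH18 rose. PCDH1 (chr5:141853090-141878410), an adhesion protein of airway epithelium and endothelium, had 275, 334 and 327 in WT against 1873, 2014 and 2035 in NUAK2-CR (log2 fold change 2.67, SE 0.10, adjusted p = 6.77e-10), a 6.36-fold higher level with the groups far apart. PCDH18 had 304, 451 and 363 in WT against 1271, 1157 and 1219.7 in NUAK2-CR (log2 fold change 1.71, SE 0.13, adjusted p = 2.87e-07). PCDH7 had 219, 232 and 241 in WT against 422, 327 and 514 in NUAK2-CR (log2 fold change 0.87, SE 0.16, adjusted p = 0.00063), a smaller difference but without overlap. PCDH9 had 199, 279 and 263 in WT against 170.2, 229 and 173 in NUAK2-CR, and its groups overlapped (log2 fold change -0.37, SE 0.18, adjusted p = 0.105), although it passed without WT replicate 1 or NUAK2-CR replicate 2, with values down to -0.52. PCDH8 had 3, 2 and 2 counts in WT against 0, 0 and 0 in NUAK2-CR, and PCDH11X and PCDH11Y had none.

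Of the 3 other non-clustered protocadherins, PCDH20 and PCDH15 were lower. PCDH20 had 1944, 2974 and 2714 normalized counts in WT against 689, 629.5 and 628 in NUAK2-CR (log2 fold change -1.97, SE 0.14, adjusted p = 1.54e-07), and was a DEG without WT replicate 1, at -2.13. The PCDH20 count is uncertain, since 4659 of its 5105 annotated exon bases are shared with another gene on the same strand. Default counting would leave reads there unassigned if that gene was in the annotation used, which is not known. PCDH15, the partner of CDH23 in the tip link of hair cells, had 87.0, 110.0 and 87.1 in WT against 25.4, 13.3 and 24.2 in NUAK2-CR (log2 fold change -2.17, SE 0.31, adjusted p = 7.09e-05), and without NUAK2-CR replicate 2 the log2 value was -1.93, outside the DEG threshold. In both genes the groups were separate. PCDH12, which shares its locus with RNF14 on the other strand, had at most 28 counts and a log2 fold change of -0.26 (adjusted p = 0.679).

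The clustered protocadherins lie on the plus strand of chromosome 5 in GRCh38, PCDHA at chr5:140786140-141012347 (15 genes), PCDHB at chr5:141051374-141249365 (16 genes) and PCDHG at chr5:141330514-141512975 (22 genes). In the GENCODE 44 annotation every PCDHA gene ends in the same 3 exons (2869 bases) and every PCDHG gene in another 3 (2177 bases), while the PCDHB genes are single exons that share no bases with each other. Several PCDHB genes overlap other genes, most of all PCDHB2, with 1797 of its 4098 exon bases under PCDHB1-AS1 on the other strand. The counts of these genes are uncertain. With default settings featureCounts leaves reads that fall on several genes unassigned. On this annotation, which may not be the one used for counting, the counts of PCDHA and PCDHG genes would come from the variable first exon of each. The paralogs are similar in sequence, so reads in near-identical stretches may be missing from single genes.

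Clustered protocadherin promoters are known for a conserved element with the core letters CGCT. The windows printed here are 30 bases of RefSeq promoter sequence (GRCh38.p14, plus strand, 5′ to 3′), centered on the CGCT, in capitals, whose surroundings were most like those of the other promoters of the cluster. They show 1 PCDHA promoter without reads, PCDHB and PCDHG promoters whose genes were higher in NUAK2-CR, PCDHB15, whose gene did not pass the test, and PCDHGB2, whose gene was lower.
PCDHA8, chr5:140841133-140841162: agccacatgatgtCGCTgtctaccaagaag
PCDHB2, chr5:141094547-141094576: agacgcggggtggCGCTgcagccttagaag
PCDHB7, chr5:141172569-141172598: aaacgcaaggtggCGCTgctggctaaaaag
PCDHB16, chr5:141182313-141182342: gaacgcgtggtggCGCTgcaggttaagatg
PCDHB15, chr5:141245317-141245346: caacgcatggtggCGCTgcaggctaaggct
PCDHGA9, chr5:141402717-141402746: ggactctgagcgcCGCTgttgatcaactct
PCDHGB1, chr5:141350028-141350057: aacctctgggcgcCGCTgtcgaccaaaagg
PCDHGC3, chr5:141475883-141475912: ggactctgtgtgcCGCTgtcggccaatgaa
PCDHGC4, chr5:141484955-141484984: tgagcccgggagcCGCTgtctgccaatcgg
PCDHGB2, chr5:141359924-141359953: aacctctgagcgtCGCTgttggtcaaaaga
The letters CGCT stood on the gene's strand in 12 of 13 PCDHA, 14 of 14 PCDHB and 25 of 25 PCDHG promoter windows of 300 bases (some of the 20 PCDHG genes have several), against 54.3% of all 35116 promoter windows of that length, or 70.0% on either strand. Longer runs that contain CGCT were chosen after the sequences had been seen. GATGTCGCT was in 9 of 13 PCDHA promoters, against 0.074% of all promoters (0.105% on either strand). GGTGGCGCT was in 13 of 14 PCDHB promoters, against 0.302% (0.501% on either strand). GCCGCTGT was in 13 of 25 PCDHG promoters, against 0.897% (1.63% on either strand). The core letters CGCT were present both in promoters of genes that were higher in NUAK2-CR, such as PCDHGA9 and PCDHGB1, and in that of PCDHGB2, which was lower, and a match describes letters only. RefSeq promoter windows were found for 75 of the 98 members, and of the clustered ones PCDHA3, PCDHA13, PCDHB6, PCDHB11, PCDHGA12 and PCDHGC5 had no entry.

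The PCDHA cluster was close to silent in both groups. Its 15 genes together had 10, 6 and 11 counts in WT against 2, 7 and 14 in NUAK2-CR, 7 of them had no count in any library and none could be tested. The highest single value was 4 counts. PCDHAC2, the last variable exon of the array, had 4, 0 and 3 counts in WT against 2, 2 and 4 in NUAK2-CR, PCDHA13 had 0, 0 and 2 in WT against 0, 2 and 4 in NUAK2-CR and PCDHA1 had 2, 0 and 4 in WT against 0, 2 and 0 in NUAK2-CR, the highest sums of the array.

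PCDHB genes were higher in NUAK2-CR across most of the array. The genes summed to 1376, 1927 and 1759 normalized counts in WT against 3823, 3721 and 3786 in NUAK2-CR, or 1687 ± 282 in WT and 3777 ± 52.1 in NUAK2-CR (SD, n = 3), a ratio of 2.24 with no overlap. Of 16 genes 15 were tested, 11 were higher (73.3%, against 26.3% of all genes tested) and 4 did not pass, and the median log2 fold change was 1.21. PCDHB2, the most abundant, had 340.1, 472 and 441 in WT against 1144, 1085 and 1078 in NUAK2-CR (log2 fold change 1.41, SE 0.12, adjusted p = 7.84e-07). PCDHB16 followed with 250.4, 362 and 329 in WT against 789, 681 and 700.4 in NUAK2-CR (log2 fold change 1.21, SE 0.14, adjusted p = 1.16e-05). PCDHB9 had 209, 299 and 239 in WT against 486, 491 and 529 in NUAK2-CR (log2 fold change 1.02, SE 0.14, adjusted p = 6.84e-05). Each of these 3 had every NUAK2-CR library above every WT library.

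Lower in the order of abundance, PCDHB7 had 138, 131 and 118 in WT against 345, 415 and 363 in NUAK2-CR (log2 fold change 1.53, SE 0.15, adjusted p = 2.63e-06) and PCDHB3 had 17.9, 30.9 and 26.9 in WT against 99.0, 89.2 and 70.3 in NUAK2-CR (log2 fold change 1.79, SE 0.31, adjusted p = 0.000319). PCDHB11 was the DEG with the largest fold of the array, at 7.97, 21.2 and 10.7 in WT against 114, 82.0 and 97.7 in NUAK2-CR (log2 fold change 2.90, SE 0.37, adjusted p = 2.94e-05), and its groups were far apart. PCDHB6 had 7, 17 and 13 counts in WT against 42, 30 and 48 in NUAK2-CR (log2 fold change 2.07, SE 0.46, adjusted p = 0.00199), and fell under the DEG threshold when WT replicate 1 or either of NUAK2-CR replicates 1 and 3 was left out, down to 1.64. PCDHB4 and PCDHB8 had at most 37 counts and log2 fold changes of 1.84 (adjusted p = 0.00942) and 1.99 (adjusted p = 0.00489). PCDHB4 did not pass without NUAK2-CR replicate 2 (adjusted p = 0.0514), and crossed the DEG threshold without WT replicate 3 or NUAK2-CR replicate 1, at up to 2.12. PCDHB8 ran from 1.71 to 2.66 with single libraries left out, the latter without WT replicate 2, and was a DEG there, without NUAK2-CR replicate 2 and with a replicate block. PCDHB10 and PCDHB14 rose least, with 0.80 (adjusted p = 0.00254) and 0.66 (adjusted p = 0.0142), and PCDHB14 did not pass without NUAK2-CR replicate 3 (adjusted p = 0.0657).

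The 4 PCDHB genes that did not pass were PCDHB5, PCDHB12, PCDHB13 and PCDHB15. PCDHB15, the last gene of the array, had 45.8, 31.8 and 40.8 in WT against 44.4, 24.1 and 42.8 in NUAK2-CR (log2 fold change -0.10, SE 0.34, adjusted p = 0.831), and its groups overlapped. PCDHB13 had 34.5, 43.4 and 52.7 in WT against 59.7, 79.6 and 58.2 in NUAK2-CR (log2 fold change 0.61, SE 0.28, adjusted p = 0.089), and PCDHB5 and PCDHB12 had log2 fold changes of -1.06 (adjusted p = 0.261) and 0.67 (adjusted p = 0.258). PCDHB1, the first gene, had no count. As shares of the array's counts, PCDHB2 took 24.7 ± 0.295% in WT and 29.2 ± 0.726% in NUAK2-CR and PCDHB14 15.8 ± 2.61% in WT and 11.2 ± 1.66% in NUAK2-CR. By mean level the first 6 genes were PCDHB2, PCDHB16, PCDHB14, PCDHB9, PCDHB10 and PCDHB7 in WT, and the same 6 led in NUAK2-CR with PCDHB9 ahead of PCDHB14 and PCDHB7 ahead of PCDHB10.

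**Figure D3:**
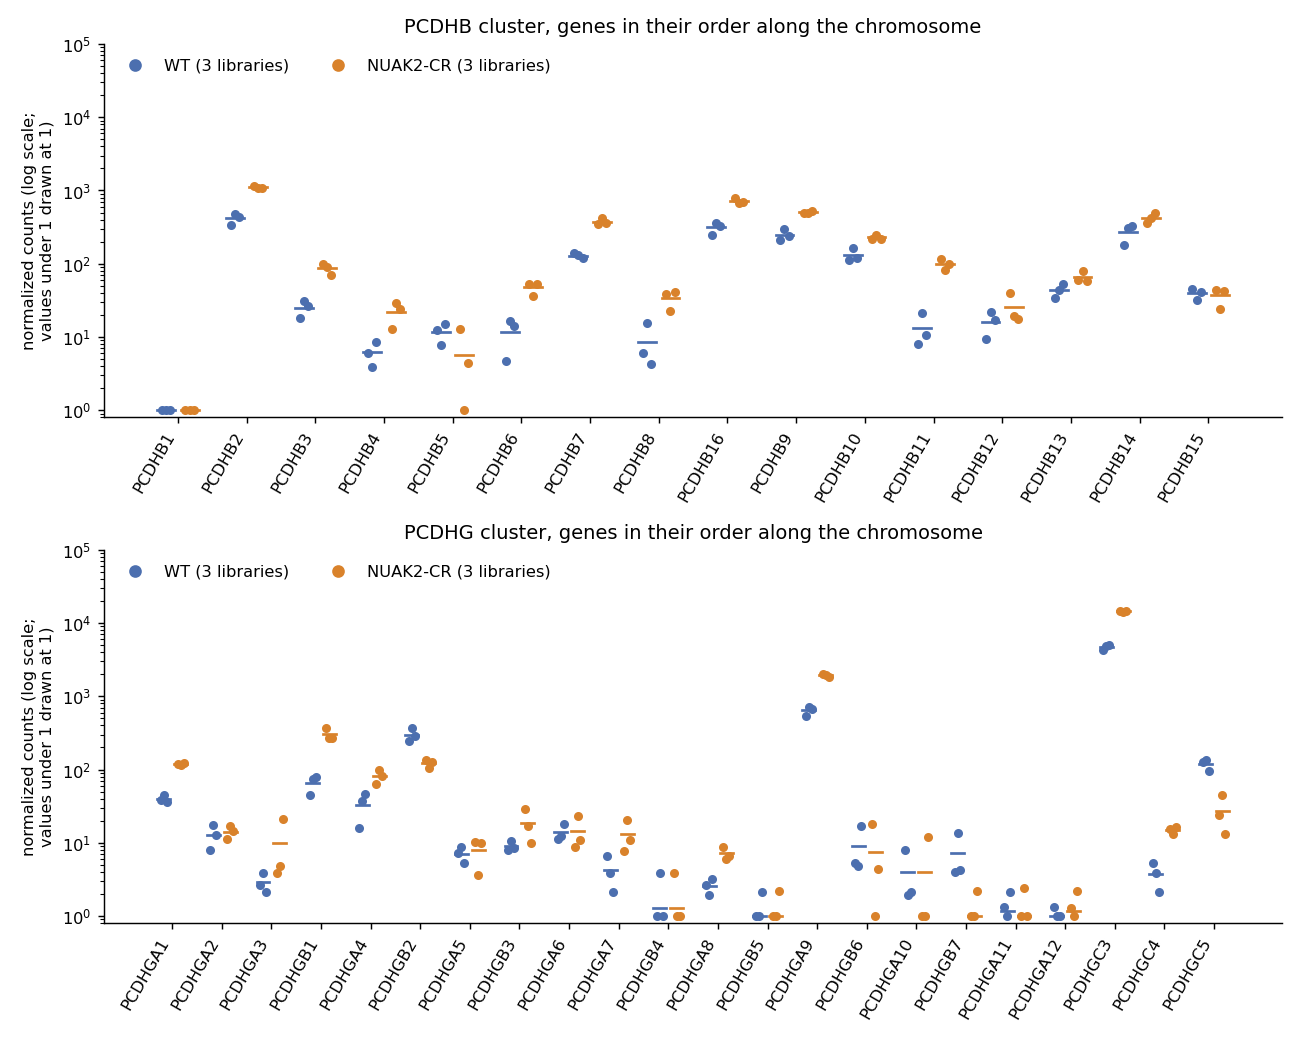
Normalized counts per library (log axis, values under 1 drawn at 1; points are libraries and short lines group means) of the PCDHB and PCDHG genes in chromosomal order. NUAK2-CR lies above WT for most PCDHB genes and for PCDHGA1, PCDHGB1, PCDHGA9 and PCDHGC3, and below WT for PCDHGB2 and PCDHGC5.

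The PCDHG cluster was also higher in sum, and a single gene held most of it. Its 22 genes summed to 5309, 6317 and 6384 normalized counts in WT against 17419, 16784 and 17284 in NUAK2-CR, or 6003 ± 602 in WT and 17162 ± 335 in NUAK2-CR (SD, n = 3), a ratio of 2.86. PCDHGC3, the C-type gene that is known to be expressed beyond neurons, had 4229.9, 4861 and 5077 in WT against 14569.6, 14114 and 14713 in NUAK2-CR (log2 fold change 1.62, SE 0.08, adjusted p = 6.55e-09), a 3.06-fold higher level with no overlap. Its share of the cluster's counts was 78.7 ± 1.53% in WT and 84.3 ± 0.760% in NUAK2-CR. Without it the cluster sum was 1281 ± 189.5 in WT and 2697 ± 141 in NUAK2-CR, a ratio of 2.11. PCDHGA9, the leading A-type gene, had 542, 709 and 675 in WT against 2016, 1929.6 and 1827 in NUAK2-CR (log2 fold change 1.59, SE 0.10, adjusted p = 8.53e-08) and kept a share of 10.7 ± 0.515% in WT and 11.2 ± 0.560% in NUAK2-CR.

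Of the 10 PCDHG genes tested, 6 were higher, 2 lower and 2 did not pass. PCDHGA1, at the start of the array, had 37.9, 44.4 and 36.5 in WT against 121, 117 and 124 in NUAK2-CR (log2 fold change 1.60, SE 0.23, adjusted p = 7.22e-05). PCDHGB1 had 45.2, 74.3 and 79.5 in WT against 371, 268 and 273 in NUAK2-CR (log2 fold change 2.21, SE 0.23, adjusted p = 5.81e-06), and without WT replicate 1 its log2 value was 1.99, just under the DEG threshold. PCDHGA4 had 15.9, 36.7 and 46.2 in WT against 63.5, 97.7 and 82.3 in NUAK2-CR (log2 fold change 1.34, SE 0.37, adjusted p = 0.00839). In each of these the lowest NUAK2-CR library was above the highest WT library, while PCDHGC4 rose from very few reads, with 8, 4 and 2 counts in WT against 12, 11 and 15 in NUAK2-CR (log2 fold change 1.89, SE 0.56, adjusted p = 0.0115), and was a DEG without WT replicate 1, at 2.26. PCDHGA2 and PCDHGA6 had at most 19 counts in a library and log2 fold changes of 0.19 (adjusted p = 0.762) and 0.04 (adjusted p = 0.947).

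PCDHGB2 and PCDHGC5 were the tested genes of the array that were lower in NUAK2-CR. PCDHGB2 had 242, 369 and 290.2 in WT against 136, 106 and 128 in NUAK2-CR (log2 fold change -1.28, SE 0.19, adjusted p = 0.000101), while PCDHGB1 and PCDHGA4, the genes just before it, were higher in NUAK2-CR and PCDHGA5, just after it, had 11, 9 and 5 counts in WT against 8, 3 and 9 in NUAK2-CR. Its share of the cluster's counts was 4.55%, 5.85% and 4.55% in WT and 0.780%, 0.632% and 0.743% in NUAK2-CR. PCDHGC5, the last gene of the array, had 125, 135 and 96.7 in WT against 24.1, 44.6 and 13.2 in NUAK2-CR (log2 fold change -2.13, SE 0.36, adjusted p = 0.000283), and without NUAK2-CR replicate 3 its log2 value was -1.78, outside the DEG threshold. Its share was 2.35%, 2.14% and 1.52% in WT and 0.139%, 0.266% and 0.0762% in NUAK2-CR. For both genes the WT and NUAK2-CR shares were far apart compared with the spread between libraries.

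By subfamily, in normalized counts, the PCDHGA genes summed to 764 ± 104 in WT and 2198 ± 68.8 in NUAK2-CR and the PCDHGC genes to 4845 ± 429 in WT and 14508 ± 299 in NUAK2-CR, ratios of 2.88 and 2.99. The PCDHGB genes summed to 394 ± 86.4 in WT and 456 ± 88.9 in NUAK2-CR, a ratio of 1.16 within the spread, with PCDHGB1 higher and PCDHGB2 lower. The other 12 PCDHG genes were not tested and had at most 23 counts in any library, PCDHGB3 the highest among them. PCDHGA7, with 10, 4 and 2 counts in WT against 6, 17 and 10 in NUAK2-CR, was kept by the filter in some fits with a library left out, and was higher in NUAK2-CR at an adjusted p under 0.05 without WT replicate 1 or without NUAK2-CR replicate 1. Also untested, PCDHGB7 had 6, 14 and 4 counts in WT against 0, 0 and 2 in NUAK2-CR. PCDHGA8 had 4, 2 and 3 in WT against 7, 5 and 6 in NUAK2-CR. A sum over genes is a description and carries no test.

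**Figure D4:**
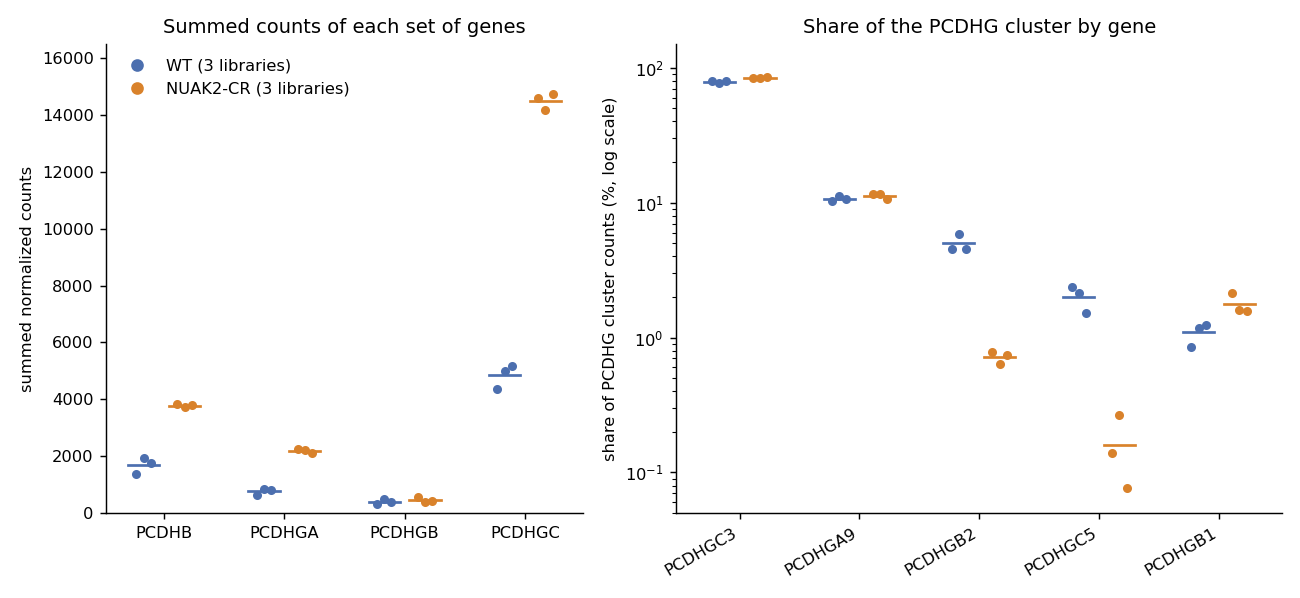
Left, summed normalized counts of the PCDHB genes and of the PCDHGA, PCDHGB and PCDHGC genes per library (points; short lines are group means). Right, the share of the PCDHG cluster's counts taken by 5 genes (log axis, percent): PCDHGC3 goes from 78.7% to 84.3%, PCDHGB2 from 4.98% to 0.718% and PCDHGC5 from 2.00% to 0.160%.

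Levels were compared between genes as RPKM, that is counts scaled to library size and transcript length. Lengths were those of the canonical transcript in GENCODE 44 and, for clustered genes, its variable exon alone. On this scale CDH2 led WT cells and PCDHGC3 led NUAK2-CR cells. The lengths were 4016 bases for CDH2 and 2581 for PCDHGC3. All annotated exons cover 8583 bases in CDH2, and in PCDHGC3 3253 bases of its own. The WT order of these genes depends on the lengths taken, and those behind the counts are not known. CDH2 had 69.0 ± 6.01 in WT and 77.8 ± 2.16 in NUAK2-CR (SD, n = 3), PCDHGC3 48.8 ± 4.54 in WT and 149 ± 3.23 in NUAK2-CR, and CDH11 43.6 ± 6.96 in WT and 59.2 ± 1.95 in NUAK2-CR. The order of these 3 was CDH2, PCDHGC3, CDH11 in WT, where PCDHGC3 and CDH11 lay within their spread of each other, and PCDHGC3, CDH2, CDH11 in NUAK2-CR. PCDH10, which came next in WT cells, had 18.6 ± 1.34 in WT and 0.168 ± 0.0347 in NUAK2-CR. CDH6 had 4.79 ± 0.461 in WT and 19.8 ± 0.808 in NUAK2-CR, which put it beside PCDHGA9 (6.58 ± 0.905 in WT and 19.7 ± 0.973 in NUAK2-CR) and FAT1 (14.0 ± 1.85 in WT and 21.2 ± 4.34 in NUAK2-CR) in the latter.

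The median log2 fold change of all tested genes differed between chromosomes, with -0.47 on chromosome 13 and 0.14 on chromosome 4, and each member was set beside the 50 nearest tested genes that are not members. Around the 5q clusters the median log2 fold change of those neighbors was -0.22, and that of all tested genes on chromosome 5 was -0.21, while the median over the tested PCDHB genes was 1.21 and over the tested PCDHG genes 1.46. PCDHGC3 stood 1.83 above its neighbors relative to all genes, and PCDH1, which follows the PCDHG array on the same chromosome, 2.88. The lower genes PCDH17 and PCDH20 lie on chromosome 13, where the neighbors' medians were -0.51 and -0.48, and PCDH19 on X, where it was -0.53. Less that shift, itself taken relative to the median of all genes tested, they were at -6.04, -1.50 and -2.26. PCDH9, also on chromosome 13, came to 0.10. CELSR2, on chromosome 1, had neighbors with a median of -0.58 and came to 0.44, beside 0.44 for CELSR3. PCDH10 had neighbors with a median of -0.05, and FAT4, DCHS2 and PCDH18, on the same chromosome 4, had 0.11, 0.14 and 0.01.

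Transcripts for the core catenins, which link cadherins to the cytoskeleton, differed little between the groups. Of 14 catenins and linkers 12 were tested, 2 higher and 4 lower. Alpha-catenin (CTNNA1) had a log2 fold change of -0.18 (adjusted p = 0.0334), beta-catenin (CTNNB1) 0.09 (adjusted p = 0.261) and plakoglobin (JUP) -0.17 (adjusted p = 0.058). CTNND1 (p120-catenin), which overlaps the read-through gene TMX2-CTNND1 and so has an uncertain count, had 0.10 (adjusted p = 0.811). Delta-catenin (CTNND2), a neural member, went from 2038 ± 120.0 to 387 ± 53.2 normalized counts, -2.40 (adjusted p = 3.21e-09), and the nectin linker afadin (AFDN) was at -1.14 (adjusted p = 2.9e-07).

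Other adhesion families showed larger single changes. Of 9 nectins and nectin-like genes 8 were tested, 5 higher and 2 lower with 1 not passed. CADM3 rose from 681 ± 90.8 to 7152 ± 135 normalized counts, a log2 fold change of 3.40 (adjusted p = 1.04e-10), and CADM4 was at 1.04 (adjusted p = 2.69e-07), while CADM1 was at -1.42 (adjusted p = 2.7e-06) and NECTIN4, with at most 23 counts, at -2.28 (adjusted p = 0.0138). Of 11 desmosomal genes 5 were tested and 2 were lower, DSG2 at -0.61 (adjusted p = 6.48e-05) and PKP3 at -2.04 (adjusted p = 2.11e-06). From the wider cadherin superfamily 5 of 9 genes were tested and 3 were higher, among them CLSTN2 at 1.51 (adjusted p = 2.81e-06) and CDHR3 at 1.34 (adjusted p = 0.0169). Of 9 genes for cadherin cleavage 3 were higher and 4 lower, with no log2 change past 1 in size.

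Among 15 planar polarity genes, which work with the CELSR, FAT and Dachsous proteins, 6 were higher and 7 lower. FZD6 was at 1.36 (adjusted p = 2.35e-06), and VANGL1, PRICKLE2, PRICKLE3 and SCRIB were at -1.05 (adjusted p = 4.2e-07), -1.28 (adjusted p = 3.62e-07), -1.07 (adjusted p = 0.000163) and -1.01 (adjusted p = 0.0134). Of 18 chromatin regulators of the clustered protocadherins 4 were higher and 4 lower. CTCF, which binds the cluster promoters, was at 0.00 (adjusted p = 0.998), and the DNA methyltransferase DNMT3A at -1.20 (adjusted p = 3.22e-07). Of 7 known CDH1 repressors 6 were tested, 3 higher and 1 lower, with ZEB1 at 1.02 (adjusted p = 9.73e-07) and SNAI1 at -3.08 (adjusted p = 3.12e-05). These lists were read gene by gene, and their shares called may be set beside the 26.3% and 28.2% of all tested genes.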

How the data were processed

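Bulk RNA-sequencing covered 6 U251MG libraries, grouped by the sample titles as WT (n = 3) and NUAK2-CR (n = 3). Per the study's methods, polyadenylated RNA was prepared with a stranded kit and sequenced as read pairs, and the authors used Trimmomatic, HISAT2 with hg38 and featureCounts with default parameters. They deposited raw read counts per NCBI gene identifier; the annotation is not given in the sources used here, and the default setting does not use strand, so a member that overlaps a gene of the other strand has an uncertain count. Symbols and positions came from RefSeq (GRCh38.p14), which matched 27745 of 28395 identifiers, and exon structure from GENCODE 44, which matched all 98 members. Members and gene lists were chosen with earlier results of these data known.

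The counts were tested with edgeR 4.0.16 in R 4.3.3 (filterByExpr, TMM, quasi-likelihood F test, prior count 0.125), with Benjamini-Hochberg adjustment over 14873 genes. The SE is the absolute log2 fold change, fitted without the prior count, divided by the root of F. Genes given in full were CDH1 to CDH6, CDH11, CDH13, the FAT, Dachsous and CELSR genes, the 3 highest of each cluster, and members with an adjusted p under 0.05, an absolute log2 fold change over 1 and at least 50 normalized counts; of the partner lists, the core catenins and genes past the same call and fold. Other members are named to account for the family, with their values seen. A floor of 3 counts was set for a count of 0, for counting error only. It takes counts as independent, which they are not if both reads of a pair were counted. Alternatives were DESeq2 1.42.0, other filters, scaling by RLE or by library size, leaving out single libraries, a replicate block, a prior count of 2 and an absolute log2 fold change over 1. The scripts were tested on simulated counts. Protein sequences were not used here. Tables were made with pandas 2.3.3 and figures with matplotlib 3.10.9.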

Additional observations from a re-analysis of the deposited data

How the results depend on the processing

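Of the alternative values for the 38 named members that were tested, 488 kept their direction and side of the threshold and 3 gained significance, CDH2 with DESeq2 and without WT replicate 2, and CDH4 without WT replicate 2. The count of members higher in NUAK2-CR lay from 32 to 35 with single libraries left out, and that of lower members from 9 to 10. The DEGs numbered 7 to 9 higher and 5 to 7 lower in those fits. With at least 10 counts in every library 5 higher DEGs were left, because CDH7, CDH20 and PCDHB6 were no longer tested, and PCDH17 dropped out of the lower ones. An absolute log2 fold change over 1 gave 24 higher and 9 lower members. The log2 ratio of the PCDHB sum ran from 1.04 to 1.27 and that of the PCDHG sum from 1.43 to 1.56 without single libraries, and that of the PCDHA sum, which rests on few reads, from -0.56 to 0.56. Same-numbered WT and NUAK2-CR libraries had correlations of 0.043, -0.035 and 0.048 between their deviations, so the numbers do not pair the libraries; a replicate block gave 33 higher and 9 lower members, with 9 and 6 DEGs. Depth limits the PCDHA genes and the other untested members, where a library with 0 counts allows up to 3.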

Other observations

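Rows beside the members that the rule left out, because they are not protein coding, also held reads. PCDH10-DT, the long non-coding RNA that starts next to PCDH10 in the opposite direction (chr4:133093860-133149116 in GRCh38), had 26, 22 and 8 counts in WT against 0, 0 and 0 in NUAK2-CR, too few for the test. Among the pseudogenes of the PCDHB array, PCDHB18P had 5, 7 and 17 counts in WT against 10, 11 and 16 in NUAK2-CR (log2 fold change 0.71, adjusted p = 0.344 from edgeR's test). PCDHB19P had 2, 0 and 0 counts in WT against 6, 6 and 4 in NUAK2-CR, and PCDHB17P had at most 11 counts in a library. PCDHGB8P had 0 counts in every WT library and 4, 0 and 1 in NUAK2-CR. The row for the constant region of the PCDHA array had no count in any library. It covers exons that all PCDHA genes share, where default counting leaves reads unassigned, so this 0 does not describe the level of the array.

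Of the genes with 1 to 20 counts in a library, 62.4% to 66.4% had an even count. The libraries were sequenced as read pairs and counted with featureCounts at default parameters, of a version that is not given in the sources used here, and the part of how mates were counted in these shares was not tested.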
